A study of Arabidopsis thaliana with 8 samples.

Results

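The cytochrome branch of mitochondrial respiration depends on a few genes that have stayed in the mitochondrial genome, and 6 of them could be read on these arrays, each through its own probe set: cox1, cox2, ccb206, ccb382, ccb203 and ccb452. They were chosen by name, with earlier results of these data known. Each is a cytochrome oxidase or cytochrome c biogenesis gene of the mitochondrial genome. The platform's annotation gives each as the single gene of a probe set. They make up 6 of the 22810 probe sets on the array and 6 of the 23 probe sets with 1 mitochondrial gene. All plants were Arabidopsis thaliana of ecotype WS, 10 days old, grown upright at 22C on 0.5 MS medium with long days. Control plants received no added selenate and treated plants received 40 µM selenate, the oxidised selenium anion that enters plants as an analogue of sulfate. Roots and shoots were taken apart, and total RNA of each was hybridised to Affymetrix arrays, which gave 4 groups with 2 arrays each: roots and shoots of control plants, and roots and shoots of selenate plants. Whether the 2 arrays of a group represent separate cultures, and how many plants were pooled, is not in the labels; p-values therefore reflect the spread between these arrays alone, and that spread may be technical.

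Cytochrome c oxidase is the last complex of the respiratory chain and passes electrons from cytochrome c to oxygen. Its catalytic core is made inside the mitochondrion: cox1 encodes the subunit that holds the haem and copper centre where oxygen is reduced, and cox2 the subunit whose copper centre takes electrons from cytochrome c. Cytochrome c itself is encoded in the nucleus and becomes active only when haem is joined to it covalently. In plants this is done by a maturation pathway of bacterial type. RefSeq names the 4 ccb genes after it: ccb206 is ccmB, a membrane protein of the transporter-like part of the pathway, ccb382 is ccmFN1, ccb203 is ccmFN2, and ccb452 is ccmFC. The ccmF products form the haem lyase, and in Arabidopsis the gene for its N-terminal portion is split into ccb382 and ccb203.

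The values are array signals, which have no unit and carry each probe set's own response, so levels are compared between groups for 1 gene and never between genes. Labelling followed the standard Affymetrix protocol, which copies RNA from its poly(A) tail. In plant mitochondria a poly(A) tail marks RNA for turnover, so a signal here can reflect the amount of a transcript, the share that carries a tail, or both, and these cannot be told apart. In whole organs, fewer cells of a type and less RNA per cell cannot be told apart either. Much of the mitochondrial genome also has a copy in chromosome 2 of the reference nuclear genome. The annotation lists 11 further probe sets with a mitochondrial and a nuclear gene together, among them the one for cox3, the remaining mitochondrial oxidase subunit, and these are not described here. The name of the ccb452 probe set ends in _s_at, which means that it may bind more than 1 transcript, and its values are uncertain in that respect.

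The libraries matched their organ labels by the markers that could be named: 7 of 7 green-tissue genes were higher and 3 of 3 root genes lower in control shoots than in control roots. The description fields of the shoot samples mention roots, while their titles and sources name shoots; the titles were followed. Signals reached 100 for 13224 to 14624 probe sets per array. The spread between replicates was wider in shoots, where the standard deviation of the log2 difference was 0.51 for controls and 0.41 for selenate, against 0.26 and 0.28 in roots. The 3′ signal of GAPDH over its 5′ signal, a reading of RNA integrity, was 0.783 to 0.868 on root arrays. In shoots it was 2.03 and 10.4 for controls 1 and 2 against 7.34 and 2.95 for selenate 1 and 2. The control probe set for 25S ribosomal RNA, which normally lacks a poly(A) tail, gave 154.1 and 218.2 in control shoots against 596.3 and 6262.3 with selenate. On root arrays it gave 55.8 and 124.5 in controls and 80.2 and 139.3 with selenate. The 3′ over 5′ ratio of UBQ, a second integrity reading, was 4.38 and 4.88 in control shoots against 5.24 and 6.11 with selenate, and the 5S ribosomal RNA signal was 158.6 and 339.8 against 557.7 and 420.4. On root arrays these overlapped between control and selenate, at 2.12 to 2.75 and 29.8 to 676. The 3′ over 5′ ratio of actin was 21.2 and 55.9 in control shoots against 51.7 and 22.9 with selenate. In shoots the 25S, UBQ and 5S readings thus moved in the same direction as most of the mitochondrial genes, while the GAPDH and actin ratios overlapped. The part of all these readings in the results was not tested.

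In shoots grown on selenate, both oxidase subunits and 3 of the 4 cytochrome c maturation genes were higher than in control shoots, by 1.90-fold to 3.58-fold. The remaining gene, ccb382, gave nearly the same signal in both. Among the higher genes, ccb203 entered the test through selenate shoots alone, so its call there is no independent sign of a change. The same 5 genes had higher values in selenate roots than in control roots, by 1.54-fold to 2.27-fold, of which only ccb206 passed the test over all probe sets. Organ markers moved in selenate roots as well: 3 of 7 green-tissue genes were called lower there and 0 higher (LHCB4.2, PSAE-1 and LHCB4.1, at log2 changes of -1.82, -0.97 and -0.69), and so was 1 of 3 root genes, EXPA7, an expansin of root hairs (-1.16). Over all probe sets, 380 of 16053 were called lower in roots. At an unadjusted p under 0.05 (limma), 5 of 7 green-tissue genes and 2 of 3 root genes were lower there. The summed signal of the 7 green-tissue genes was 2598 and 2108 in control roots against 1429 and 1286 with selenate. That of the 3 root genes was 19595 and 17806 against 18596 and 19248, and no marker was at 0 on these arrays. PYK10 made up most of the root sum, with means of 17535 in control and 18465 in selenate roots. The means of EXPA7 went from 496 to 208 and those of EXPA18 from 669 to 248. In shoots 0 markers were called (limma; 1 at an unadjusted p under 0.05, EXPA7, higher). The part of these shifts in the root changes was not tested. Fold changes are on the log2(signal + 25) scale, which understates those of weak signals. A call means an adjusted p under 0.05 in limma after Benjamini-Hochberg adjustment over the 16053 probe sets tested.

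**Figure D1:**
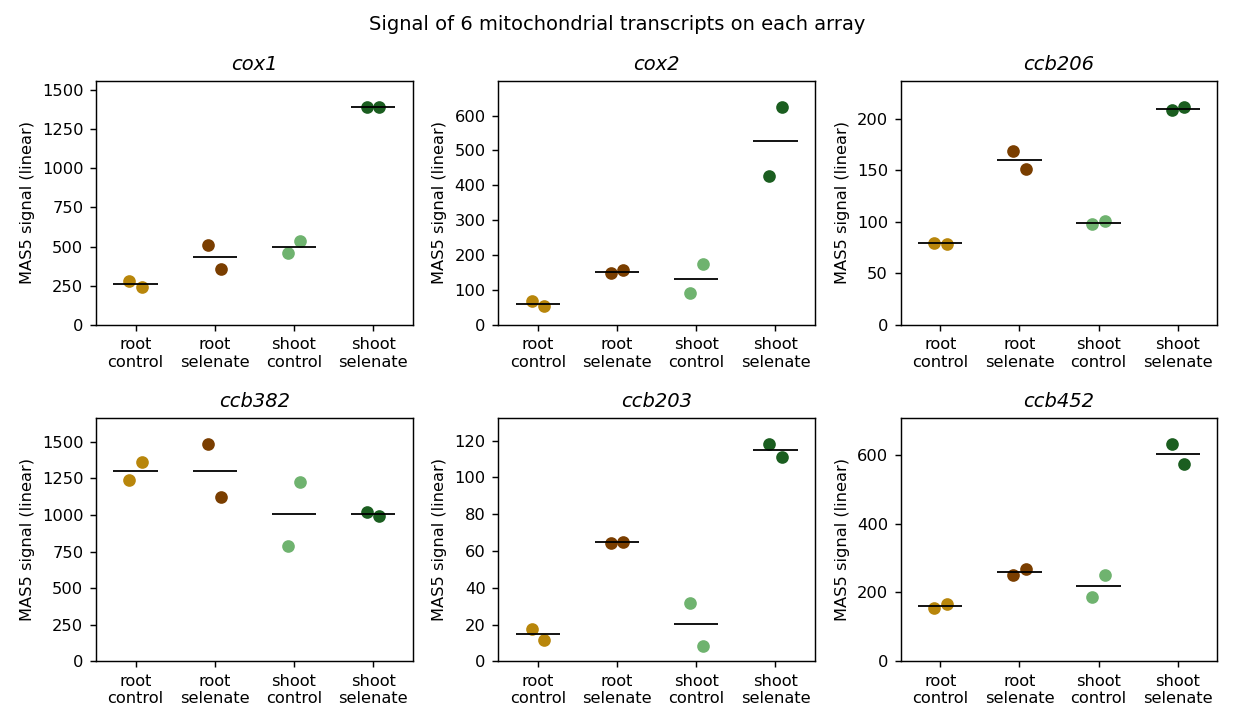
Signal (linear, from 0) of each of the 6 genes on the 8 arrays, 2 points per group, with a line at the group mean. For every gene except ccb382 both selenate arrays lie above both control arrays in roots and in shoots; ccb382 shows overlapping groups within each organ.

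cox1 had signals of 278.0 and 240.7 in control roots, 510.9 and 355.4 in selenate roots, 460.2 and 534.8 in control shoots, and 1389.8 and 1391.1 in selenate shoots. The selenate shoots stood far above the rest. In shoots the catalytic subunit transcript rose 2.72-fold, a log2 change of 1.44 ± 0.20 SE with an adjusted p of 0.0100 in limma. In roots the groups did not overlap either, with a log2 change of 0.67 ± 0.20 SE that missed the threshold (limma adjusted p = 0.102). Selenate roots and control shoots overlapped in level, and control roots were lowest.

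cox2 had signals of 67.1 and 53.7 in control roots, 147.9 and 155.7 in selenate roots, 89.7 and 174.6 in control shoots, and 427.8 and 624.3 in selenate shoots. In shoots it rose 3.58-fold, a log2 change of 1.84 ± 0.29 SE with an adjusted p of 0.0170 in limma, with both selenate arrays above both controls. The size depended on which shoot arrays were read: the log2 change was 2.50 without control shoot 2 and selenate shoot 1, the shoot arrays with high GAPDH ratios, and 1.18 without the other pair of shoot arrays. In roots the log2 change was 1.05 ± 0.29 SE (limma adjusted p = 0.0782), or 0.65 with a pseudocount of 100. The selenate roots lay within the range of the control shoots.

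Among the maturation genes, ccb206 (ccmB) was the one called in both organs. Its signals were 79.7 and 78.5 in control roots, 168.6 and 151.3 in selenate roots, 97.6 and 100.7 in control shoots, and 208.9 and 211.6 in selenate shoots. All 4 groups were apart, in the order control roots, control shoots, selenate roots, selenate shoots. It rose 1.77-fold in roots (log2 change 0.83 ± 0.19 SE, limma adjusted p = 0.0337) and 1.90-fold in shoots (0.92 ± 0.19 SE, limma adjusted p = 0.0476). Neither call held with the replicate number as a block (limma adjusted p = 0.0602 in roots and 0.0937 in shoots). The shoot call also ended with a pseudocount of 5 (0.06195), quantile normalization over all arrays (0.05975) and array weights (0.258). Both calls lay near the threshold: without a filter on low signals the adjusted p was 0.0725 in roots and 0.0847 in shoots, and removing any 1 of the 4 root arrays ended the root call (0.161 to 0.244).

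ccb452 (ccmFC), which encodes the C-terminal portion of the haem lyase, had signals of 153.6 and 167.2 in control roots, 252.2 and 268.2 in selenate roots, 185.7 and 250.1 in control shoots, and 631.4 and 572.6 in selenate shoots. Both selenate shoot arrays stood above every other array, and control shoots fell just short of selenate roots. In shoots the transcript rose 2.60-fold, with a log2 change of 1.38 ± 0.19 SE and a limma adjusted p of 0.00986, the smallest adjusted p of the 6 genes. The root change of 0.62 ± 0.19 SE was not called (limma adjusted p = 0.111).

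The N-terminal portion of the haem lyase is encoded by ccb382 and ccb203. ccb203 (ccmFN2) gave weak signals of 17.7 and 11.7 in control roots, 64.6 and 64.8 in selenate roots, 31.9 and 8.5 in control shoots, and 118.3 and 111.4 in selenate shoots. It reached a signal of 100 only in selenate shoots and entered the test through that group alone, so its call there is no independent sign of a change. The fitted rise in shoots was 3.20-fold (log2 change 1.68 ± 0.31 SE, limma adjusted p = 0.0297; 0.0398 without a filter). Both control groups were near or under the pseudocount of 25, and the size therefore followed it: the log2 change in shoots was 2.42 with a pseudocount of 5 (limma adjusted p = 0.0709) and 0.84 with 100. In roots it was 1.18 ± 0.31 SE (limma adjusted p = 0.0601), 1.84 with a pseudocount of 5 and 0.52 with 100.

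ccb382 (ccmFN1) had signals of 1241.9 and 1362.6 in control roots, 1485.9 and 1120.2 in selenate roots, 790.3 and 1224.7 in control shoots, and 1023.4 and 995.2 in selenate shoots. Selenate and control overlapped in each organ. The log2 change was -0.01 ± 0.22 SE in roots (limma adjusted p = 0.993; 95% interval -0.51 to 0.49) and 0.04 ± 0.22 SE in shoots (adjusted p = 0.969; -0.47 to 0.54). In shoots the intervals were 0.99 to 1.89 for cox1, 1.19 to 2.49 for cox2, 0.95 to 1.80 for ccb452 and 0.50 to 1.35 for ccb206. The difference in response between genes was not tested, since their probe sets differ in sensitivity.

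**Figure D2:**
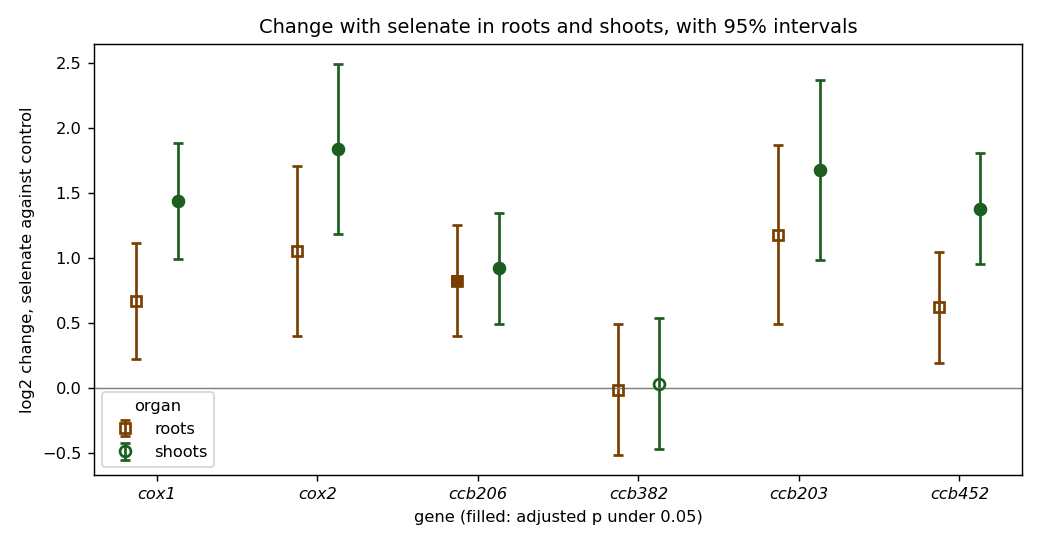
Log2 change with selenate in roots (squares) and shoots (circles) for each gene, with 95% intervals from limma; filled symbols have an adjusted p under 0.05. In shoots 5 of 6 symbols are filled and in roots only that of ccb206, and both intervals of ccb382 span 0.

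Set against the whole array, 5 of the 6 genes were called higher in selenate shoots and 0 lower, where 1.07% of the 16053 probe sets were called higher and 1.86% in either direction (limma). Leaving ccb203 aside, the number was 4 of 5, which still depends in part on the filter. Of the 6, cox1, ccb452 and ccb382 reached 100 on all 4 control arrays. Among these genes cox1 and ccb452 were called in shoots and none in roots. For cox2 and ccb206, 1 control array and all 4 selenate arrays reached 100, so the filter favoured higher selenate values for these 2. The medians and counts that follow include all 6 genes, ccb203 among them. The median log2 change of the 6 was 1.41, beside -0.02 over all probe sets tested. In roots 1 of 6 was called, beside 3.35% called higher and 5.71% in either direction, and the median was 0.75, beside -0.02. At an unadjusted p under 0.05, 5 of 6 were higher in roots, where 6.90% of all probe sets were, and the same 5 in shoots, where 7.10% were. Both selenate arrays exceeded both control arrays for 5 of 6 genes in roots and 5 of 6 in shoots. They did so for 23.6% and 17.1% of all probe sets. The genes were chosen with earlier results of these data known, so these shares describe them and are no test.

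These counts lean on a spread shared by the 4 groups. With only the shoot arrays in the fit, limma called 0 of the 6 genes and 0 probe sets in all, and the adjusted p of the 5 risers was between 0.132 and 0.319; at an unadjusted p under 0.05 it counted 5 of the 6 genes and 1318 probe sets. No shoot call of these genes held without selenate shoot 1 or without selenate shoot 2, which leaves 1 array in that group. The log2 changes of the 5 risers were then 0.93 to 2.10 and 0.91 to 1.71. The shoot calls of ccb203 and ccb206 ended without any 1 of the 4 root arrays (adjusted p 0.0740 to 0.0822 and 0.112 to 0.117), that of cox2 without either selenate root (0.0569 and 0.0560), and that of ccb206 without either control shoot (0.0765 and 0.0559). With a fit to the root arrays alone, 4 of 6 genes were called higher in roots. They were ccb203, ccb206, ccb452 and cox2 (limma adjusted p = 0.0108, 0.0178, 0.0326 and 0.00827). Calls rose across the whole array in that fit, with 998 probe sets called higher in roots and 2145 in either direction. In the main fit these numbers were 537 and 917.

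**Figure D3:**
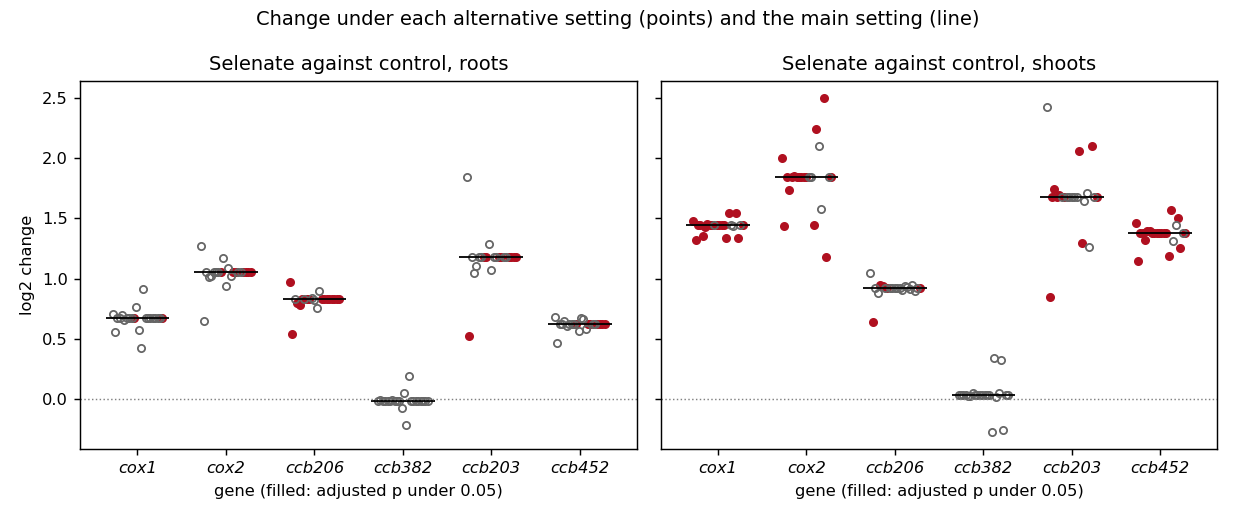
Log2 change with selenate in roots (left) and shoots (right) under each alternative setting (points; filled where the adjusted p is under 0.05), with a line at the main value. The 5 genes other than ccb382 stay above 0 in every setting that was run, between 0.42 and 1.84 in roots and between 0.64 and 2.50 in shoots, while ccb382 falls on both sides of 0.

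Whether the response differed between organs was tested as the shoot change minus the root change. None of the 6 genes passed (limma, 0 called; 2 at an unadjusted p under 0.05), where 3.70% of all probe sets were called and 15.6% had an unadjusted p under 0.05. The differences of cox1 and ccb452 were 0.77 ± 0.28 SE and 0.76 ± 0.27 SE (log2; limma adjusted p = 0.212 and 0.196), with the larger change in shoots. That of cox2 was 0.79 ± 0.41 SE (adjusted p = 0.409) and spanned the widest range: it was 1.45 without the shoot arrays with high GAPDH ratios, then called (adjusted p = 0.0285), and 0.13 without the other pair of shoot arrays. For ccb206, whose change was alike in size in roots and shoots, the difference was 0.09, with a 95% interval from -0.51 to 0.70.

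Between the control organs, the oxidase subunit genes were higher in shoots. cox1 was 1.84-fold higher (log2 difference 0.88 ± 0.20 SE, limma adjusted p = 0.00368) and cox2 1.78-fold higher (0.83 ± 0.29 SE, adjusted p = 0.0310), but the cox2 call held in only 12 of 20 alternatives, with log2 differences from 0.43 to 1.23. The control shoots of cox2, 89.7 and 174.6, lay far apart: without control shoot 2 the difference was 0.43 (adjusted p = 0.197) and without control shoot 1 it was 1.23 (0.00292). The cox2 call also ended without any 1 of the 4 root arrays (0.0507 to 0.144), without a filter (0.0525) and with a pseudocount of 100 (0.0505). None of the 4 ccb genes was called: the log2 differences were 0.14 for ccb203, 0.25 for ccb206, 0.38 for ccb452 and -0.39 for ccb382. Without control shoot 2, ccb382 was called lower in control shoots (log2 difference -0.70, limma adjusted p = 0.0115), as it was without both shoot arrays with high GAPDH ratios (0.00955). Of all probe sets 63.2% were called in this comparison and 25.7% called higher in shoots, which is the background for 2 of 6. The median of all probe sets was -0.21, and relative to it cox1 and cox2 stood at 1.08 and 1.04 (log2). After quantile normalization over all arrays ccb206 and ccb452 were called as well (adjusted p = 0.0301 and 0.0132), and after median centring ccb452 was (0.0339). RNA integrity differed between every root and every shoot array, and its part cannot be told apart from that of the organ.

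With selenate the gap between the organs was called for cox1 (3.14-fold higher in shoots, limma adjusted p = 6.7e-05), cox2 (3.07-fold, 0.000906) and ccb452 (2.20-fold, 0.000563), 3 of 6 where 65.1% of all probe sets were called and 25.6% called higher in shoots. For ccb382 the log2 differences in this comparison and in the control organs were -0.35 and -0.39, neither of them called (limma adjusted p = 0.196 and 0.151). Relative to the median of all probe sets they were -0.10 and -0.19.

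Across the 8 arrays the 5 genes that rose in shoots followed each other, with Pearson correlations on the log2 scale between 0.78 (ccb203 with cox1) and 0.97 (ccb452 with cox2). ccb382 correlated with them at -0.41 to -0.17. These values describe 4 groups of 2 arrays that share their normalization, and carry no test. The 5 genes were grouped by their rise with selenate on the same arrays, which favours high correlations among them. Among 1247 other tested probe sets with 1 symbol-bearing gene, the pattern most like ccb452 was that of nad9, a complex I subunit gene of the same genome (r = 0.991), followed by cox2 (0.972) and nad4L (0.951). The pattern nearest to cox2 was that of ccb452, then nad9 (0.959) and cox1 (0.955). ccb206 and ccb203 were nearest to each other (0.951). The mitochondrial maturase gene of intron splicing, matR, was among the 3 nearest to both (0.909 with ccb206 and 0.933 with ccb203). Both ccb203 and matR were tested through selenate arrays alone, which favours a likeness between them. The remaining near genes were RING1 (0.919) for ccb206 and ARV2 (0.884) for ccb203. For cox1 the list also held nuclear genes, UGT87A2 (0.971) and LPR2 (0.965), with nad9 at 0.971. For ccb382 it held only nuclear genes, LAS (0.908), STIPL1 (0.891) and ATGP4 (0.882).

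Part of the rest of the mitochondrial genome, which has 32 protein genes in RefSeq, could be read through 17 further probe sets. They target only nad genes, matR and orfX. Of the 17, 12 were tested and 10 of those target complex I genes, whose products form the NADH dehydrogenase at the entry of the chain. In shoots 1 of the 12 was called higher, nad9, which went from 166 ± 23.8 (SD, n = 2) to 480 ± 67.8 (log2 change 1.40, limma adjusted p = 0.00986), and 0 lower; 9 of the 12 were higher at an unadjusted p under 0.05. All 12 had positive changes, with a range from 0.10 to 1.77, but this was partly fixed by the filter: matR and 2 of the nad1 probe sets reached 100 on selenate arrays alone, and 4 others on 1 control array. The 5 that reached it on at least 2 control arrays had changes of 0.10 to 1.40 in shoots and 0.38 to 0.74 in roots. In roots 1 of 12 was called, matR, which was named after its values were seen; its signals were 6.3 and 8.0 in control roots against 110.0 and 111.2 in selenate roots (log2 change 2.08, adjusted p = 0.0128). Since it was tested through selenate arrays alone, its call is no independent sign of a change. Several of these probe sets target the same gene, nad1 or nad5, and are not separate transcripts. For nad1 the changes in shoots ran from 0.10 to 1.10 over 4 tested probe sets.

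The plastid genome, the other set of transcripts made inside an organelle, gave 69 tested probe sets. None was called in shoots (limma, 0 of 69; 2 at an unadjusted p under 0.05), with a median log2 change of 0.08 and a range from -0.23 for clpP to 1.42 for petN. In roots psbF alone was called, and fell by 0.71 on the log2 scale; the median over the 69 was 0.20. All 69 were higher in control shoots than in control roots, at a median log2 difference of 3.51.

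**Figure D4:**
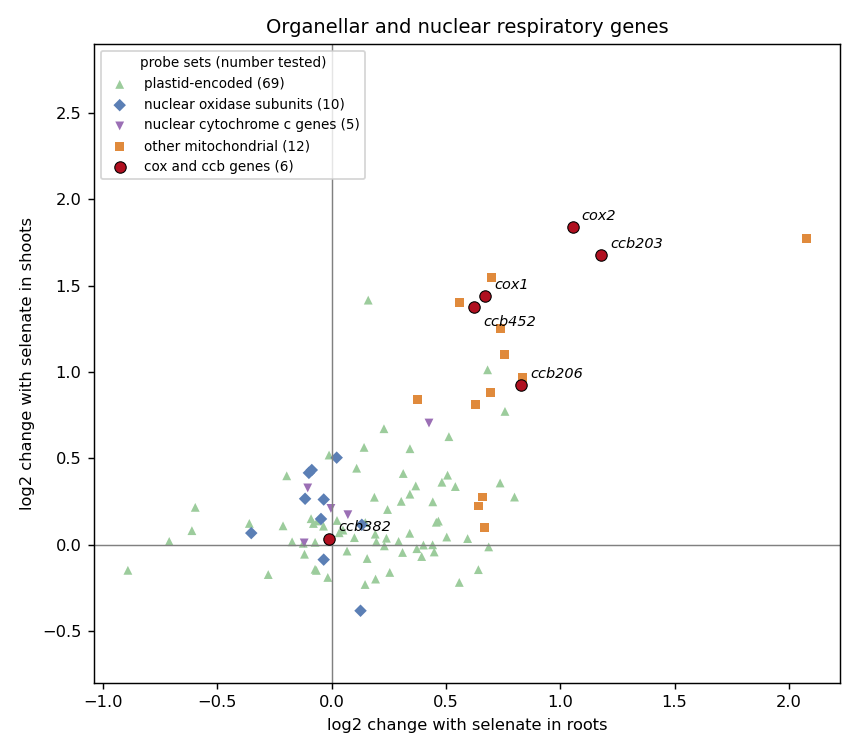
Log2 change with selenate in roots (horizontal axis) against shoots (vertical axis) for the tested probe sets of the 6 cox and ccb genes, other mitochondrial genes, plastid genes, nuclear oxidase subunits and nuclear cytochrome c genes. Except for ccb382, the cox and ccb genes lie at the upper right with many of the other mitochondrial probe sets. Some of those were tested through selenate arrays alone, and others lie low in shoots, such as orfX at 0.22 and a nad1 probe set at 0.10. The plastid group has medians of 0.20 in roots and 0.08 in shoots. Both nuclear groups have medians near 0 in roots (-0.04 and -0.0036) and of 0.21 in shoots.

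Nuclear genes of the same machinery were examined as well. Of 13 listed nuclear subunits of cytochrome c oxidase 10 were tested, and limma called 0 in either organ with selenate. At an unadjusted p under 0.05 (limma), 0 differed in roots and 3 in shoots, all of them higher. Over all probe sets, 7.10% were higher in shoots at that threshold. Of the 10 subunits, 3 had positive changes in roots and 8 in shoots. Their median log2 change was -0.04 in roots and 0.21 in shoots, and no member lay above 0.50 or below -0.38. COX6a, the one with the highest mean signal, had 7282 ± 14.6 (SD, n = 2) in control shoots and 8743 ± 578 in selenate shoots. Among 3 tested oxidase assembly factors 0 were called, also at an unadjusted p under 0.05, with COX11, a copper chaperone of the oxidase, at 0.03 in roots and 0.36 in shoots. The 5 tested nuclear genes for cytochrome c, cytochrome c1 and its maturation gave 0 calls (1 at an unadjusted p under 0.05, in shoots), with medians of -0.0036 in roots and 0.21 in shoots. These held CCMH, a maturation factor that acts beside the ccb products, at -0.12 and 0.01, and the cytochrome c genes CYTC-1 at 0.07 and 0.17 and CYTC-2 at 0.43 and 0.70 (limma adjusted p = 0.358 and 0.121; unadjusted 0.00553 in shoots). Of the organellar RNA genes, PNPmt, the mitochondrial polynucleotide phosphorylase that degrades RNA, had log2 changes of -0.02 and 0.24, and RPOTmp, an RNA polymerase of the organelles, 0.38 and -0.09, none called. No alternative oxidase gene, the route that bypasses cytochrome c oxidase, could be named on the probe table used here.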

How the data were processed

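The deposited intensity values are linear signals that the authors made with MAS5 (version not given in the sources used here), per the submitters' processing notes. They have a trimmed mean, without the 2% of probe sets at each end, of 500.04 to 500.05 on every array. MAS5 subtracts mismatch signal and summarises each array alone, so weak signals carry large relative errors. Detection calls were not used here.

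From these, log2(signal + 25) was computed, 64 control probe sets were left out, and 16053 probe sets that reached 100 on at least 2 of 8 arrays were kept. The fit used limma 3.58.1, run in R 4.3.3 (1 mean per group, variance trend, 4 residual and 5.12 prior degrees of freedom). The small number of arrays limits precision. Samples were grouped by title. The 6 genes matched RefSeq (assembly TAIR10.1) by name or synonym, since the platform's mitochondrial gene identifiers are not in that table; the other mitochondrial genes were found the same way, and not by locus as planned. No sequence or coordinate is printed. Of each gene list, by locus, genes called with selenate or else the one with the highest mean signal were to be named. CCMH, CYTC-2, RPOTmp, PYK10, EXPA18, clpP, petN, psbF and matR were chosen after their values were seen. Likeness of pattern was ranked by Pearson correlation over the 8 arrays, and the 3 nearest were named. The members, lists and tests were chosen with earlier results of these data known. The procedure was tested on data simulated with the same spread on all arrays. That test does not cover the wider spread between replicates seen in shoots. Alternatives covered pseudocount, filter, normalization, variance model, arrays in the fit, replicate block and left-out arrays.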

Additional observations from a re-analysis of the deposited data

How the results depend on the processing

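The 6 genes were called 1 time in roots, 5 in shoots, 0 for the difference between organs, 2 between control organs and 3 between selenate organs. Leaving out each of the 8 arrays in turn gave 0 to 4 in roots, 0 to 4 in shoots, 0 for the difference, 1 to 3 between control organs and 3 to 4 between selenate organs. In roots the count was 0 without a filter or with the stricter one (a signal of 200 on 4 arrays), 2 with a pseudocount of 100 or without the variance trend, 5 with array weights, and 4 without either pair of shoot arrays or with only root arrays. In shoots it was 3 with a pseudocount of 5, 2 with the stricter filter, which does not test cox2, ccb203 and ccb206, 2 with array weights, 3 without the shoot arrays with high GAPDH ratios, and 0 with only shoot arrays. For the difference it was 1 without the arrays with high ratios. Between control organs it was 1 with a pseudocount of 100, without a filter or with the stricter one, and 4 after quantile normalization over all arrays; without control shoot 2, alone or with selenate shoot 1, 1 gene was higher and 1, ccb382, lower; between selenate organs it was 5 after that or after median centring. The cause of these shifts was not tested, beyond the fewer probe sets or arrays that some settings use.

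Signs turned only for ccb382 and ccb203, none of them called. ccb382 had a log2 change in roots of 0.05 without control root 2 and 0.19 without selenate root 2, and in shoots of -0.27 without control shoot 1 and -0.25 without the shoot arrays with low ratios. Its difference between organs was then -0.02, -0.15, -0.26 and -0.24. Over the 8 arrays left out singly, its change ran from -0.21 to 0.19 in roots, from -0.27 to 0.34 in shoots and from -0.26 to 0.35 for the difference. ccb203 was at -0.24 between control organs without control shoot 1, alone or with selenate shoot 2, and at most at 0.52, without control shoot 2.

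Over all probe sets, against 917 calls in roots, 299 in shoots and 594 for the difference, leaving out 1 array gave 398 to 1351, 51 to 631 and 233 to 1017. Array weights gave 2200 in roots and 85 in shoots, and the stricter filter 377 for the difference. Without the shoot arrays with high ratios the numbers were 2047, 745 and 1358, and without those with low ratios 2057, 673 and 1389. Only root arrays gave 2145 in roots, and only shoot arrays 0 in shoots.

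Groups share replicate numbers 1 and 2, but no label says that these pair the samples. The deviations of same-numbered arrays correlated at 0.34 between control and selenate roots, -0.48 between control and selenate shoots and -0.01 to 0.06 between organs. With the replicate number as a block 0 of the 6 genes were called in roots and 3 in shoots, and 123 probe sets in shoots. With the shoot numbers crossed, a setting chosen after seeing the data, the block gave 5 in roots and 5 in shoots, and 1800, 1439 and 1711 probe sets in roots, in shoots and for the difference. Weak signals limit ccb203 most, since it lies below 100 on 6 of 8 arrays.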

Other observations

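The 5 mitochondrial probe sets that were too weak to be tested did not share one pattern. That of nad7, a complex I subunit gene, had signals of 33.7 and 21.5 in control shoots and 87.1 and 57.2 in selenate shoots. Of the 3 untested probe sets of nad1, 1 gave 48.1 and 47.7 in control roots and 17.0 and 20.5 in selenate roots, with no overlap and the lower values on selenate, while the 4 tested ones had positive changes in roots. The nad2 probe set stayed between 4.5 and 55.2 on all arrays, with 7.3 and 55.2 on the control shoots. Signals of this size lie near the pseudocount of 25 and were not tested.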
